A study of Homo sapiens with 5 samples.

Results

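The distal block of the long arm of chromosome 15 is a run of 268 consecutive rows in the deposited gene table, rows 13859 to 14126, in which nascent transcription was higher in CAG cells than in PGK cells. Members were the rows of that range with an Ensembl identifier and at least 15 counts over the 5 libraries, which left 216 genes of 20001 in the series. The rows were chosen on the difference between CAG and PGK cells, so that difference is given here as a description of the block and carries no test. The libraries were made by PRO-seq, in which polymerases already bound to a gene add biotin-labelled nucleotides in isolated nuclei, so that reads come from transcription in progress. The cells were HEK293T, a human embryonic kidney line with the SV40 large T antigen, in monoclonal derivatives that carry a landing pad, a genomic site made to receive inserted DNA. In 2 libraries the landing pad held the promoter of the glycolytic housekeeping gene PGK and in 3 libraries it held the CAG promoter, a strong synthetic promoter. The sources do not say whether libraries of a line came from separate cultures or how many clones stand behind each promoter, so promoter and clone cannot be told apart and a p-value reflects only how far these libraries scatter.

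Chromosome 15 is acrocentric, which means that its centromere lies close to one end and that nearly all of its protein-coding genes sit on the long arm. Consecutive rows in a table sorted by position are genes that lie next to each other on the chromosome, and such neighbours need have no function in common. In bulk libraries of this kind, fewer transcribing cells or gene copies and fewer polymerases per copy cannot be told apart, and DNA was not measured here.

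The table names no chromosome and no gene, so the place of the rows was checked with known gene identifiers. For 218 identifiers in the range, the gene was known from general knowledge, and all 218 of those genes lie on chromosome 15 in the RefSeq table of assembly GRCh38.p14. Of the 217 pairs of neighbours among them, 216 rose in position and 1 fell. The identifiers were recalled with the row order in view and no table pairs them with names, so they served this check alone and members are given by row. By the same check, chromosome 15 ran from row 13529 to row 14132, and the block stopped 6 rows short of its end. Chromosome 16 followed. The files are in hg19, so no coordinates are given.

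Library totals were lowest in PGK replicate 2 (3712105) and highest in CAG replicate 3 (5864157), and the members held 393712 counts over the 5 libraries. Of the 216 members, 201 passed the filter on low counts and were fitted with the other tested genes, 13400 in all. The other 15 members had too few counts to be fitted. The remaining 52 rows of the range had under 15 counts, and 15 of these were at 0 in every library.

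The block was transcribed at a lower level in both PGK libraries than in any CAG library. Its level in a library was taken as the median, over the 201 tested members, of log2 CPM relative to the gene's own mean over the 5 libraries, with all tested genes set to 0. CPM is a gene's count scaled to the size of its library. On this log2 scale the block stood at -0.21 in PGK replicate 1 and at -0.23 in PGK replicate 2. It stood at 0.15, 0.14 and 0.14 in CAG replicates 1, 2 and 3. The lines did not overlap, with a mean of -0.22 ± 0.02 (SD, n = 2) in PGK and 0.14 ± 0.005 (SD, n = 3) in CAG cells. The difference of 0.36 corresponds to a level 1.29 times as high in CAG cells.

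**Figure D1:**
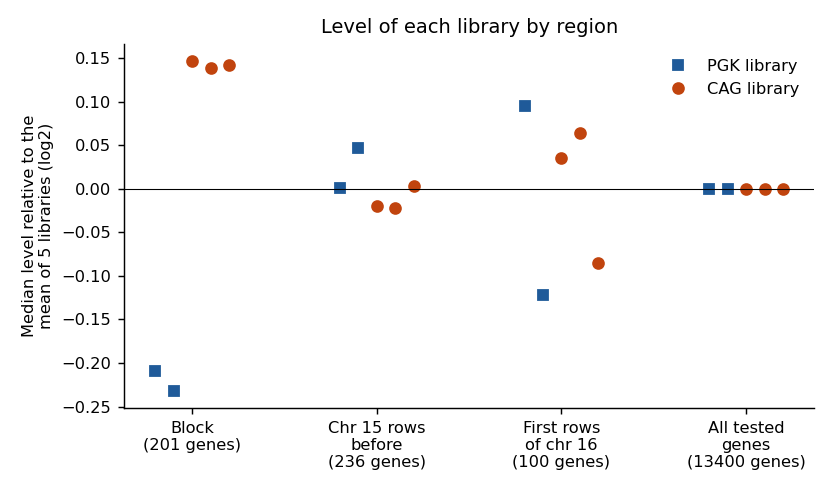
Median level of each library relative to the mean of the 5 libraries, in log2 units, for the block, the chromosome 15 rows before it, the first tested rows of chromosome 16 and all tested genes; squares are the 2 PGK libraries and circles the 3 CAG libraries. In the block the PGK libraries sit at -0.21 and -0.23 and the CAG libraries at 0.14 to 0.15, while the 236 earlier genes of chromosome 15 lie between -0.02 and 0.05.

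The rest of chromosome 15 did not share this split. Over the 236 tested genes in the chromosome 15 rows before the block, the PGK libraries stood at 0.00 and 0.05, and the CAG libraries at -0.02, -0.02 and 0.00. The lines differed there by -0.04. Over the first 100 tested genes of chromosome 16, the PGK libraries themselves lay 0.22 apart, at 0.09 and -0.12, with the CAG libraries between them at 0.04, 0.06 and -0.08.

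Each of the 6 pairings of a CAG library with a PGK library gave the block a similar ratio. The median log2 ratio over the members, relative to that over all tested genes, ran from 0.33 to 0.37 in these pairings. Between 87.6% and 93.0% of the members had the higher value in the CAG library of the pair, against 49.5% to 51.0% of all tested genes. The 4 pairings within a line, which the choice of rows did not use, gave -0.03 to 0.004. In those pairings the members split almost evenly, with 46.3% to 51.7% above 0. The block thus showed no shift between libraries of one line that approached the shift between lines. The rows were chosen on the shift between lines, so this comparison is a description. The 6 pairings reuse the same libraries and are not separate observations.

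The spread within lines could also be set against 65 other stretches of 201 tested rows, laid end to end from row 227 to row 20016, which left out the first rows of the table. The 2 PGK libraries lay 0.02 apart in the block, and their gap in the other stretches had a median of 0.05 and reached 0.18. The 3 CAG libraries spanned 0.009 in the block, against a median of 0.03 and a highest value of 0.16 elsewhere. The shift between lines in the other stretches ran from -0.41 to 0.59, and 7 of the 65 stretches had a shift at or above that of the block. The size of the shift is therefore shared by other stretches of the table, and it is one of many in which the lines differ.

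The members drew a larger part of all counts in CAG cells. The 216 members are 1.08% of the identifiers. Their share of all counts was 1.35% and 1.32% in PGK cells, and in CAG cells it was 1.72%, 1.70% and 1.71%. The lines did not overlap, with means of 1.33% ± 0.0236 (SD, n = 2) and 1.71% ± 0.0111 (SD, n = 3) and a ratio of 1.29. This sum weights each gene by its counts, whereas the median level weights each gene equally, and both gave the same ratio.

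Most members differed between the lines by a small and similar amount. The median log2 fold change of CAG over PGK was 0.36, with the middle 50% of members between 0.22 and 0.52. Relative to the median of all tested genes the shift was 0.37. Of the 201 tested members, 188 (93.5%) had a fold change above 0, compared with 49.4% of all tested genes. The interquartile range was 0.30 in the block. In the other stretches of equal length it had a median of 0.37, and 61 of the 65 had a range at least as wide as the block. Fold changes thus spanned a narrower range in the block than in most of these stretches. The stretches were cut without regard to chromosome ends, and the block was chosen on these fold changes, so its narrow range is a description.

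**Figure D2:**
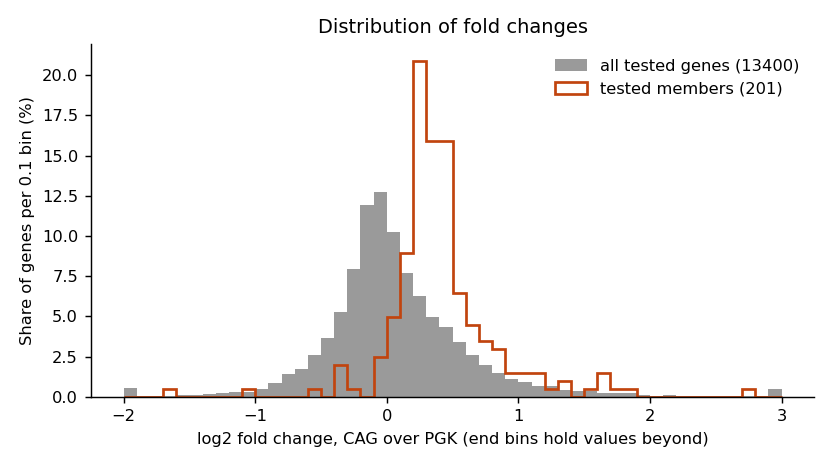
Share of genes in each 0.1-wide bin of the log2 fold change of CAG over PGK, for the 201 tested members (outline) and all 13400 tested genes (filled); the end bins hold values beyond the axis. The outline peaks to the right of 0, with 119 members between 0.2 and 0.6.

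Of the tested members, 119 (59.2%) had a log2 fold change from 0.2 to 0.6, a range that held 19.0% of all tested genes. Another 28 (13.9%) lay between 0 and 0.2, 25 (12.4%) between 0.6 and 1, and 16 (8.0%) at 1 or above. Among all tested genes these ranges held 17.9%, 7.2% and 5.2%. The remaining 13 (6.5%) were below 0, against 50.6% of all tested genes. Set against its own standard error, the fold change of 140 members (69.7%) lay within 2 standard errors of the block median. A further 29 lay more than 2 standard errors above it and 32 more than 2 below it, about 3 in 10 members. The standard errors are too small for large changes on few counts, so these numbers may be too high. That limit does not cover members with small changes on many counts. One of those more than 2 standard errors below was row 13863, at 0.15 ± 0.08 (SE) with a mean of 455 counts.

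Calls followed the same direction. At a Benjamini-Hochberg adjusted p under 0.05 in edgeR's quasi-likelihood test over all tested genes, 132 of the 201 tested members were called, against 43.4% of all tested genes. Of these, 130 were higher in CAG cells, where the share among all tested genes was 22.7%, and 2 were lower, where that share was 20.7%. Every CAG library exceeded every PGK library in 155 members, a pattern found in 30.9% of all tested genes. Every CAG library lay below every PGK library in 7 members, against 30.4% of all tested genes. Since the rows were chosen on this contrast, these counts describe the block and support nothing further. In the chromosome 15 rows before the block, 78 of 236 tested genes were called, 32 of them higher and 46 lower in CAG cells.

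The difference was present along the whole length of the block. In 10 consecutive runs of 20 tested members, the median log2 fold change ran from 0.26 in the first run, rows 13859 to 13883, to 0.45 in the run of rows 14074 to 14097. The median over the 10 runs was 0.35, and from 17 to 20 of the 20 members of each run were above 0. In each of the 10 runs the lowest CAG library stood above the highest PGK library, by 0.20 to 0.39 on the log2 level scale. The PGK libraries differed by 0.01 to 0.19 within a run and the CAG libraries by 0.004 to 0.12. Medians of single runs are thus less exact than the level of the whole block, and the differences between runs were not tested.

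**Figure D3:**
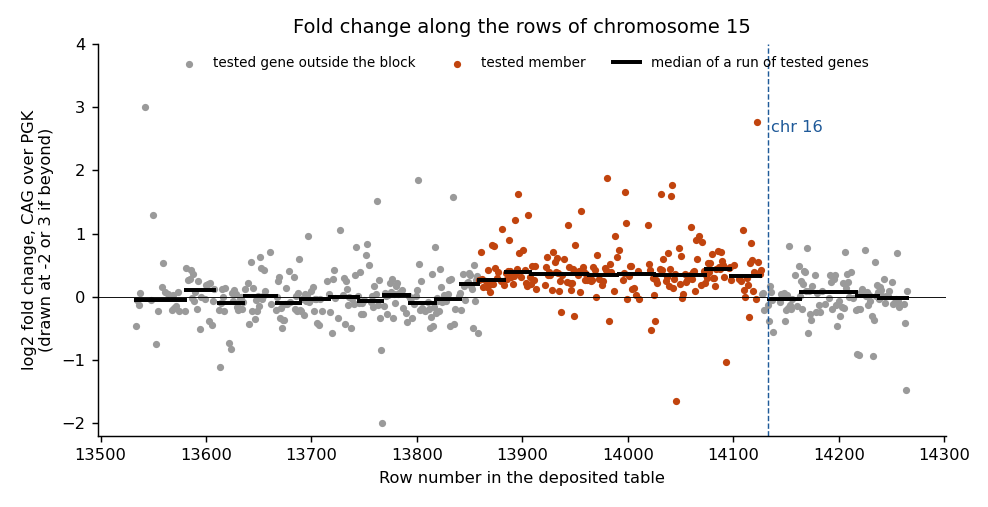
log2 fold change of CAG over PGK for each tested gene along the rows of chromosome 15 and the start of chromosome 16; grey points are genes outside the block, red points members, black bars the median of each run of 20 tested genes (16 in the last run before the block), and the dashed line the end of chromosome 15. The black bars lie between 0.26 and 0.45 in the block and at 0.20 or lower before it.

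Members above 0 formed a long unbroken sequence, which the choice of rows on this contrast favours. The first 59 tested members, rows 13859 to 13936, were all above 0. None of the 13 members below 0 had another as its neighbour among tested members. In the chromosome 15 rows before the block, the longest unbroken sequence of genes above 0 held 6 genes. These were rows 13847 to 13852, close to the block, in the run of rows 13842 to 13858 with a median of 0.20. On the first stretch of chromosome 16 the longest such sequence also held 6. These lengths describe the block, and whether signs were ordered within it was not tested.

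At the upper end of the block, fold changes dropped from the last members to the next tested rows. The last 3 tested members, rows 14124, 14125 and 14126, had log2 fold changes of 0.37, 0.36 and 0.43, and all 3 were called higher. The call of row 14124 was lost without PGK replicate 1, at 0.27, without CAG replicate 2, at 0.34, with DESeq2, at 0.37, and with the replicate number as a block, at 0.38. The next 3 tested rows, just outside the range, had values of 0.04, 0.06 and -0.22, and none was called. They are the only tested rows of chromosome 15 after the block, and the third had a mean of 12.4 counts. How sharp the ends of the block are can therefore not be compared. The last member, in row 14126, had 255 and 248 CPM in PGK cells and 340, 338 and 341 CPM in the CAG libraries. The next gene, in row 14127, had 114 and 128 CPM in PGK cells and 122, 122 and 127 CPM in the CAG libraries. The lines were thus well apart in the last member and overlapped in its neighbour.

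At the lower end, higher genes also occurred outside the range. The first 3 tested members, rows 13859, 13861 and 13862, had log2 fold changes of 0.27, 0.71 and 0.29. The middle one, with 22 and 5 counts in PGK cells, was not called. Its value was 1.75 (then called) without PGK replicate 1 and 0.30 without PGK replicate 2, and it was also called with limma-trend, at 0.89. Row 13859 was called higher, but it lost its call with DESeq2, at 0.27, and without CAG replicate 1, at 0.20. The 3 tested rows just before the block, 13856, 13857 and 13858, had values of 0.26, 0.33 and -0.58. Row 13858 had 272 and 731 CPM in PGK cells and 338, 334 and 330 CPM in the CAG libraries, so its negative value rests on PGK replicate 2, which stood apart from the other 4. In the 16 tested rows from 13842 to 13858, 8 genes were called higher and 2 lower, with a median of 0.20. In the 11 earlier runs of chromosome 15 the medians were between -0.10 and 0.10. Genes higher in CAG cells thus began before the first row of the range. Whether the change at this end was gradual or lay at a single row was not tested.

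The threshold of 15 counts also had members close to it. The member with the fewest counts, in row 14005, had 3 counts in each PGK library and 5, 3 and 4 in the CAG libraries, 18 in all. The row with the most counts among those left out, row 13906, had 14 in all. Neither was among the fitted genes.

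Scatter between members fell with their counts, as it did in the table at large. When the tested members were divided into 4 groups by mean count, the median log2 fold change was 0.49, 0.44, 0.31 and 0.29 from the lowest to the highest counts. The interquartile range fell from 0.72 to 0.32, 0.26 and 0.17 in the same order, and the median standard error from 0.28 to 0.14, 0.09 and 0.08. Genes of the whole table in the same ranges of mean count had medians of 0.22, 0.01, -0.05 and -0.06. Their interquartile ranges were 0.89, 0.52, 0.38 and 0.33. Low-count genes thus leaned towards CAG cells in the table at large as well. The distance between the members and other genes of like count was present in each of the 4 groups.

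**Figure D4:**
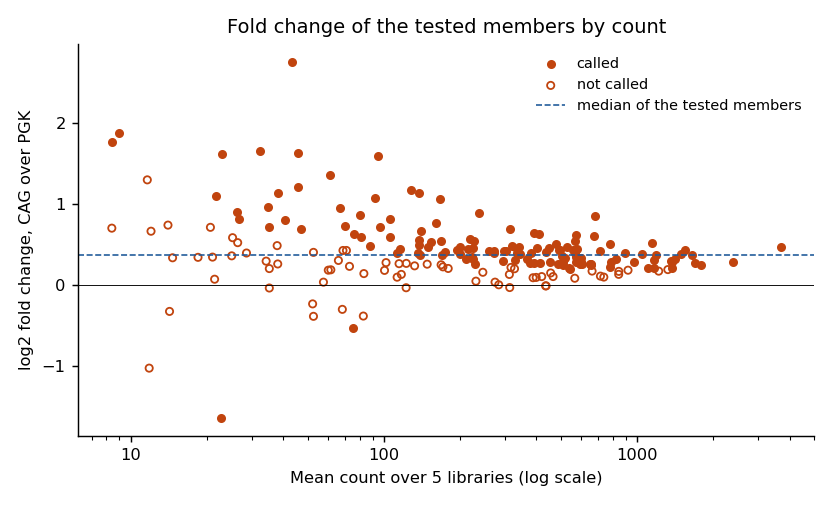
log2 fold change of CAG over PGK against the mean count over 5 libraries (log scale) for the 201 tested members; filled points were called, open points were not, and the dashed line is the median of the tested members. The points narrow towards high counts, where the interquartile range of the top group was 0.17.

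Of the 56 tested members with a mean of at least 100 CPM, all 56 had a fold change above 0 and 47 were called higher. Over all tested genes of any level, 49.4% were above 0 and 22.7% were called higher. The shares among all genes of at least 100 CPM were not computed. The rows were chosen on this contrast, so these counts are a description. The member with the most counts, in row 14097, had 578 and 611 CPM in PGK cells and 824, 800 and 845 CPM in the CAG libraries. All 3 CAG libraries were above both PGK libraries, with a log2 fold change of 0.47 ± 0.08 (SE). Next by count came row 13862, near the lower end of the block, with 418 and 423 CPM in PGK cells and 513, 521 and 503 CPM in CAG cells. The lines did not overlap there either, and the log2 fold change was 0.29 ± 0.08 (SE).

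The other members with high counts gave values of the same order. They lay between row 13960 and row 14126, and row 14107 was close to row 14097. Row 14107 had 312 and 327 CPM in PGK cells and 391, 367 and 382 CPM in the CAG libraries. Row 14044 had 289 and 305 CPM in PGK cells and 358, 348 and 373 CPM in CAG cells. Row 13960 had 262 and 296 CPM in PGK cells and 347, 360 and 369 CPM in CAG cells. In these 3 members, as in row 14126, the lowest CAG library exceeded the highest PGK library, and the log2 fold changes were 0.25, 0.28 and 0.36. All 6 members with the most counts were called higher, but with the replicate number as a block rows 13862, 14107 and 14044 lost their calls, at 0.30, 0.25 and 0.25. Row 14107 also lost its call without CAG replicate 1, at 0.23, or CAG replicate 3, at 0.25, and row 14044 without CAG replicate 3, at 0.25. The 6 members with the most counts thus spanned 0.25 to 0.47.

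A few members rose far more than the block. The largest fold change among members with a mean of at least 5 CPM belonged to ENSG00000154237 in row 14122, close to the upper end. Its counts were 13 and 4 in PGK cells and 73, 58 and 69 in CAG cells, or a mean of 1.71 ± 0.837 CPM (SD, n = 2) against 12.7 ± 1.88 CPM (SD, n = 3). Its log2 fold change was 2.76, and it ran from 2.44 without PGK replicate 2 to 3.45 without PGK replicate 1. The member just before it, in row 14121, had 8.16 and 5.61 CPM in PGK cells and 5.49, 8.90 and 6.47 CPM in CAG cells, so the lines overlapped in the row next to the largest change.

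Second was ENSG00000259495 in row 13997, with counts of 16 and 9 in PGK cells and of 45, 43 and 49 in CAG cells. The CAG libraries all lay above the PGK libraries, at a log2 fold change of 1.66. Row 14031 followed at 1.63, row 14041 at 1.60, row 13956 at 1.36 and row 13893 at 1.21. Row 14041 had the most counts of these, 49 and 27 in PGK cells against 112, 145 and 138 in CAG cells. All 6 were called higher without overlap of the lines, and their mean levels were low, from 6.27 to 18.2 CPM. A log2 fold change of at least 1 was found in 16 members, 8.0% of those tested, against 5.2% of all tested genes. Of these 16, 5 had a mean under 5 CPM and 15 were called. The share called among all genes with such a change was not computed.

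**Figure D5:**
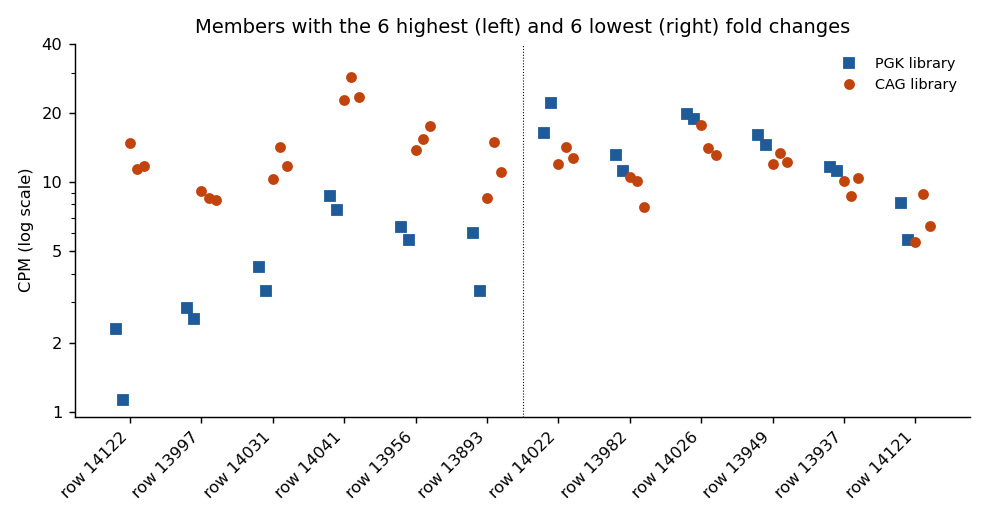
CPM (log scale) in each library for the 6 members with the highest fold changes (left of the dotted line) and the 6 with the lowest (right) among members with a mean of at least 5 CPM, each named by its row; squares are PGK and circles CAG libraries. On the left the CAG libraries lie above the PGK libraries in all 6 members, most widely in row 14122.

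Members that went the other way were few and mostly within their error. Of the 13 below 0, 9 lay within 2 standard errors of 0, and 3 had a mean under 5 CPM. The lowest with a mean of at least 5 CPM was ENSG00000103723 in row 14022, with 16.3 and 22.1 CPM in PGK cells and 12.0, 14.2 and 12.8 CPM in the CAG libraries. All 3 CAG libraries lay below both PGK libraries, and it was called lower with a log2 fold change of -0.53. Without PGK replicate 2, its higher PGK library, the value was -0.33 and the call was lost, and it was also lost without CAG replicate 1, at -0.48, and with DESeq2, at -0.55.

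ENSG00000136378 in row 13982 came next at -0.39, with 13.1 and 11.2 CPM in PGK cells and 10.6, 10.1 and 7.83 CPM in the CAG libraries. It did not pass the test, although the lines did not overlap. Rows 14026, 13949 and 13937, at -0.39, -0.30 and -0.23, likewise had every CAG library below both PGK libraries and did not pass, although row 14026 did so without CAG replicate 1, at -0.52, and with no filter on low counts, at -0.39. Row 14121, at -0.04, did not pass either. The other member called lower, in row 14046, had a mean of 4.69 CPM and a log2 fold change of -1.65. No member reached a mean of 5 CPM in one of the lines with a sum of 3 counts or fewer in the other.

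Single members scattered more between libraries than the block did. The gap between the 2 PGK libraries had a median of 0.17 on the log2 scale over the members. In 161 of the 201 tested members (80.1%) that gap was smaller than the difference between the means of the lines. In the other 40 members the gap was as large as that difference or larger. The rows were chosen on the difference between the lines, and the share over all tested genes was not computed, so these counts describe the members only.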

How the data were processed

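PRO-seq gene counts of 2 PGK and 3 CAG libraries were analysed. The authors deposited raw counts, 1 row for each Ensembl identifier. The submitters' processing notes name HISAT2 2.2.1 and Bowtie2 2.5.1, featureCounts 2.0.3, UMI-tools, cutadapt and fastp 0.23.2, and the build hg19. Which annotation and strand setting were used, and which part of a gene was counted, is not given in the sources used here, so values of overlapping genes, antisense partners and near-identical copies are uncertain. The 18 rows without an identifier held 13 to 25 counts per library and were left out. All value columns were matched to samples, with 0 left unmatched. Columns were grouped by their labels.

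Genes were kept by filterByExpr (minimum count 10, minimum total 15) in edgeR 4.0.16 (R 4.3.3), scaled by TMM and compared between CAG and PGK with its quasi-likelihood F test, fitted over the whole table. A gene was called at a Benjamini-Hochberg adjusted p under 0.05. Standard errors were obtained by dividing the log2 fold change by the root of F, and for large changes on few counts they are too small and not printed. log2 CPM used a prior count of 2. Alternatives were other scalings, DESeq2 1.42.0, limma-trend (limma 3.58.1), other filters, the replicate number as a block, leaving out each library, and other summaries of the block. Replicate numbers are shared by the lines, and same-numbered libraries did not deviate together (r of 0.04 and -0.07 across genes), so they were not treated as pairs.

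Members to be described were the 6 with the most counts, the 6 highest and 6 lowest fold changes among those with a mean of at least 5 CPM, and the 3 tested rows on each side of each end. Because no table here pairs identifiers with names, at most 2 identifiers are printed per direction, and gene roles, marker genes and promoter sequences, which need names, were not analysed here. The members and rules were chosen with earlier results of these data known.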

Additional observations from a re-analysis of the deposited data

Results flagged for a closer look

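Counts outside the comparisons were found in the 52 rows of the range that had under 15 counts over the 5 libraries. Together they held 183 counts, above the limit that a count of 0 allows. They were not compared between the lines.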

How the results depend on the processing

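The shift of the block, 0.37 with all tested members, stayed above 0 in every alternative that was run. The rows were chosen on this contrast and the alternatives reuse the same libraries, so the sign is no independent check. The alternatives show only how far the value moved with the processing. It was 0.33 with no filter on low counts, 0.36 with at least 1 CPM in every library, 0.35 as a mean, 0.38 without the 20 tested members at each end, 0.33 over members with at least 10 CPM and 0.39 against the chromosome 15 rows before the block. Widening the range by the 10 tested rows before it, an alternative chosen after seeing the data, gave 0.35. Leaving out 1 library gave 0.33 to 0.38, the lowest without PGK replicate 2. The number of members called, 132 in the report, ranged from 96 with DESeq2 to 139 with upper-quartile factors, and from 110 to 130 when 1 library was left out. With the replicate number as a block, 109 members were called, 106 higher and 3 lower, and the shift was 0.37. Over all genes, 4054 to 6024 were called, 4754 to 5689 when 1 library was left out. Scaling moved the median of all genes by at most 0.03. Of the 22 members described singly, 1 changed sign, that in row 14121, which was -0.04 in the report and not called. It was 0.0099 with limma-trend, 0.0054 with the replicate block and -0.24 (without CAG replicate 2) to 0.30 (without PGK replicate 1) when 1 library was left out, with 0.10 without CAG replicate 1 and 0.02 without CAG replicate 3. Over all alternatives for these 22 members, 262 of 286 values kept direction and call, 15 lost and 4 gained a call.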
